A study of Mus musculus with 9 samples.

Results

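The genes described here are 10 transcripts that mark mouse embryonic stem (ES) cells but lie outside the core network of transcription factors, namely L1td1, Utf1, Fbxo15, Fbxo2, Dppa2, Dppa4, Dppa5a, Zscan10, Tdh and Fut4. They were found among the 54913 loci of the expression table by chromosomal position in GRCm38, not by the names printed beside the loci, and all 10 had a locus among the 11747 genes that could be named in this way. RNA had been sequenced from 9 libraries, 3 in each of 3 groups. The first group held primary spermatogonial stem cells (SSC, passage 0) that had been sorted on magnetic beads for Gfra1, the receptor subunit for GDNF, from testes of pups in the first week after birth. The other groups were induced pluripotent stem cells (iPSC) at passages 10 to 11, made either from such SSC (SSCiPSC) or from fibroblasts of male fetuses (fiPSC). Every group, SSC included, carried the same alleles, Gt(ROSA)26Sortm1(rtTA*M2)Jae and Col1a1tm3(tetO-Pou5f1,-Sox2,-Klf4,-Myc)Jae, which express Pou5f1, Sox2, Klf4 and Myc when doxycycline is given. The sample labels give LIF and doxycycline in the medium, whereas the study's methods describe withdrawal of doxycycline before analysis, so reads of those 4 factors can include the transgene. The iPSC were clonal lines grown on feeder cells and, per the study's methods, had been sorted for SSEA-1 (CD15), a fucosylated sugar, to remove feeders, at a somewhat later passage than the labels give. Nothing in the labels ties a library to a separate animal or culture, so p-values measure the spread between these libraries only.

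ES cell markers of this kind were first listed because their transcripts are abundant in ES cells and early embryos and vanish on differentiation. The products do unlike things. L1td1 is an RNA-binding protein derived from a LINE retrotransposon, Utf1 is a chromatin-bound factor, Zscan10 is a zinc finger transcription factor, and Dppa2 and Dppa4 are SAP domain proteins that act together on chromatin. Dppa5a is a small KH domain RNA-binding protein. Fbxo15 and Fbxo2 are F-box proteins, the substrate-binding part of SCF ubiquitin ligases, and Fbxo15 is known as the reporter gene with which mouse iPSC were first selected. Tdh is threonine dehydrogenase, a mitochondrial enzyme on which mouse ES cells depend for growth. Fut4 is a fucosyltransferase able to build the sugar that SSEA-1 antibodies bind.

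Sequence just upstream of the annotated start is shown for 3 of these genes that went from none or almost no reads in SSC to high levels in iPSC, since this sequence differs in composition between them. It was taken from RefSeq (GRCm38.p6), which held 5 of the 10 genes in the table used, and every CG dinucleotide, the site of DNA methylation, is in capitals. The 3 stretches lie on the plus strand at chr4:98726504-98726733 for L1td1, at chr4:148160418-148160620 for Fbxo2 and at chr17:23600576-23600825 for Zscan10, and each is written 5′ to 3′ and ends before the first annotated base of the gene.
L1td1: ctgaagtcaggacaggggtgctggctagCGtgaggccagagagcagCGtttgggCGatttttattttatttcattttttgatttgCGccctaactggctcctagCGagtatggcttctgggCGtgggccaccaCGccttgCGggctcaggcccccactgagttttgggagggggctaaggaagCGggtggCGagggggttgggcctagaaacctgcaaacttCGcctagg
Fbxo2: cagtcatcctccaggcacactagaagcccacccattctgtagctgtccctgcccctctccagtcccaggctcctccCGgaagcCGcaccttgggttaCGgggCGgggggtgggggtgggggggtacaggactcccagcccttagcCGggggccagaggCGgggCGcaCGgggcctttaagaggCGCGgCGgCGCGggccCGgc
Zscan10: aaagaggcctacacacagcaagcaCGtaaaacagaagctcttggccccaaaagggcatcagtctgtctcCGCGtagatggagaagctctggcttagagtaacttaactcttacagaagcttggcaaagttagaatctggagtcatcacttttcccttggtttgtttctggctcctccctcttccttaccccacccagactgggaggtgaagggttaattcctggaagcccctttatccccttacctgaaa

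The stretch of Fbxo2 held 14 CG dinucleotides in 203 bases, that of L1td1 held 11 in 230 bases and that of Zscan10 held 3 in 250 bases. Over the full 250 bases upstream of the RefSeq start, the counts were 19 for Fbxo2, 16 for Fut4, 14 for Utf1, 11 for L1td1 and 3 for Zscan10, beside a median of 6 over 32851 promoters. G and C made up 71.6% of these bases in Fbxo2, 67.6% in Fut4, 61.6% in Utf1, 57.6% in L1td1 and 48.8% in Zscan10, beside a median of 52.4%. The CG-rich stretches thus included those of Fbxo2, which was high in iPSC, and of Fut4, which was low there. The stretch of Fut4 (14752123 to 14752372) lies wholly within the gene as annotated in GENCODE, so its values are of sequence inside that gene. Short motifs of pluripotency factors were searched on both strands, TTTGCAT (part of the POU5F1 octamer), CATTGT (SOX), AAGGTCA (an ESRRB site) and GGGTGTG (KLF). None of the 4 was present in the 250 bases of any of the 5 genes. Among all promoters of that length, TTTGCAT was found in 4.125%, CATTGT in 10.691%, AAGGTCA in 4.079% and GGGTGTG in 6.931%. The assembled loci of L1td1 and Zscan10 began upstream of the annotated starts, at 98726136 and 23600643. All of the stretch shown for L1td1 and most of that for Zscan10 thus lay within the assembled locus.

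Levels are given as FPKM, fragments scaled to transcript length and to library depth, which allows genes to be compared within a library. The SSC libraries were the shallowest. The spacing of the smallest FPKM values put them at about 1760000, 4600000 and 1380000 fragments, against 13680000 to 15730000 in SSCiPSC and 13270000 to 17470000 in fiPSC. A count of 0 in SSC therefore allows more RNA than a count of 0 in iPSC, and the level that 3 fragments would give is stated for L1td1, Zscan10 and Fbxo2, for counting error only. Fragment numbers and these limits were taken at the longest annotated transcript of a gene, and a shorter assembled transcript would raise the limits. In bulk RNA, fewer cells that hold a transcript and less of it per cell cannot be told apart.

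Of the 10 genes 9 were tested, and all 9 were higher in SSCiPSC than in SSC (limma on log2(FPKM + 1), adjusted p below the threshold of 0.05), where 26.2% of the 36544 loci tested were higher and 24.1% lower (50.3% in either direction, and 56.4% at an unadjusted p below 0.05). The same 9 were higher in fiPSC than in SSC, where 28% of 38007 loci were higher and 23.7% lower (51.8% in either direction, and 57.6% at an unadjusted p below 0.05). With each named gene counted at 1 locus, as the 9 genes are, 39.8% of 10407 genes were higher in SSCiPSC and 40.4% of 10507 in fiPSC. The median log2 fold change of the 9 genes was 5.48 and 5.18, beside 0.11 and 0.17 over all loci tested and 0.22 and 0.19 over named genes. Both comparisons use the same SSC libraries and are not independent of each other. L1td1, Fbxo2, Zscan10 and Tdh had no SSC library at 1 FPKM and passed the filter (1 FPKM in 3 of 6 libraries) through iPSC alone. The same filter left out Fut4, which was low in iPSC. The count of 9 and its median were thus partly set by the filter. For each of the 10 genes the iPSC libraries did not overlap the SSC libraries, above them for 9 genes and below them for Fut4, and an exact two-sided permutation test then gives 0.1, the smallest p that 3 against 3 allows. Of all loci tested, 31.1% lay above SSC without overlap in SSCiPSC and 28.7% below it (59.8% together), and in fiPSC 33.1% lay above and 28.5% below (61.6% together), so that a separation of the groups by itself says little. Between fiPSC and SSCiPSC none of the 9 passed the threshold, where 0.0678% of 33948 loci did, that is 23 loci, with 0.0236% higher and 0.0442% lower in fiPSC. Of those called, 34.8% were thus higher in fiPSC, against 59.2% with 1 locus per named gene. An unadjusted p below 0.05 was reached by 11.7% of loci and, at the loci used, by Fbxo15 alone among the 9 genes.

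**Figure D1:**
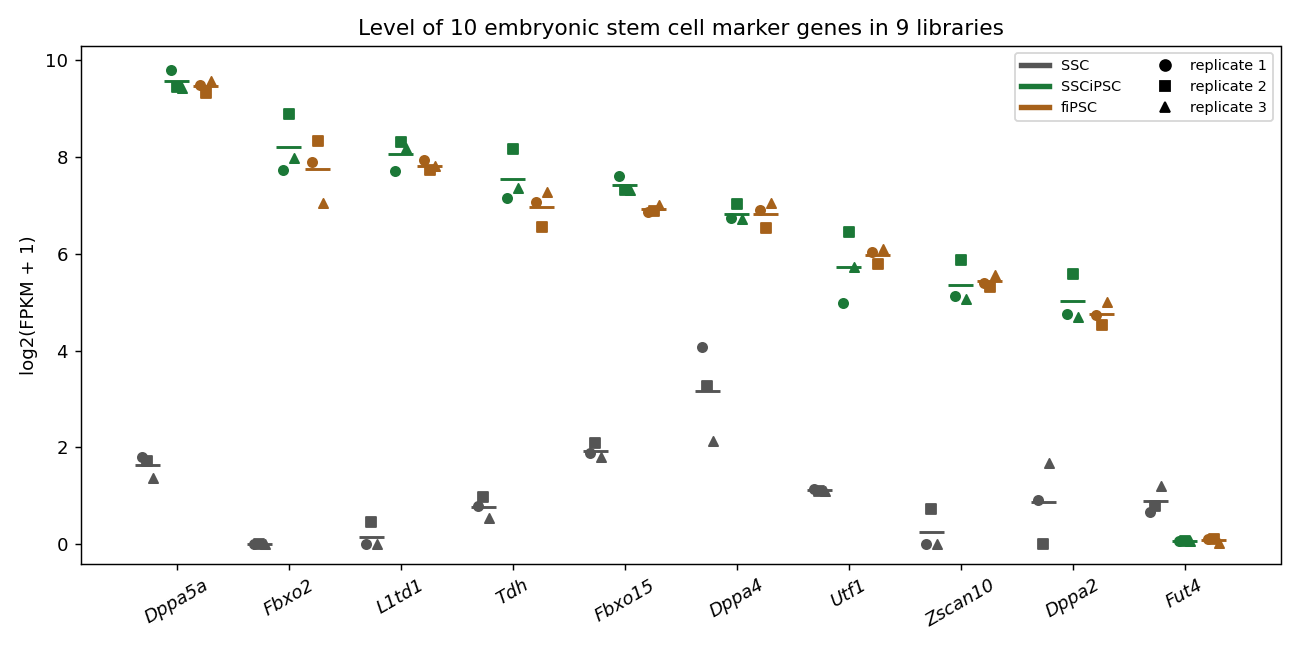
Level of each gene, as log2(FPKM + 1), in the 3 SSC, 3 SSCiPSC and 3 fiPSC libraries. Points are libraries, shapes mark the replicate number and bars are group means; genes are ordered by their mean in SSCiPSC, from Dppa5a (761 FPKM) down to Fut4 (0.0458 FPKM), the only gene whose SSC libraries lie above all iPSC libraries.

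Dppa5a was the most abundant of the 10 genes in both kinds of iPSC. Its level was 2.48, 2.30 and 1.58 FPKM in the SSC libraries, 895, 700 and 688 FPKM in SSCiPSC and 722, 636 and 760 FPKM in fiPSC. All 6 iPSC libraries thus stood far above SSC, in which about 1.0 to 4.9 fragments per library gave the values. The log2 fold change was 7.93 (SE 0.18, adjusted p = 6.8e-06) for SSCiPSC and 7.83 (SE 0.15, adjusted p = 4.18e-06) for fiPSC. The locus (chromosome 9, 78367055 to 78378607) is a shared interval that also spans Ooep, an oocyte and ES cell gene on the same strand, so part of the signal can be Ooep. The annotated gene spans 78367052 to 78368177. Gsta2, a glutathione transferase and the next gene 11264 bp away, fell by 4 on the log2 scale in SSCiPSC (adjusted p = 0.00014), and Ddx43 on the other side changed by 0.45 (adjusted p = 0.116).

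L1td1 (chromosome 4, 98726734 to 98738480) was listed at 0 in SSC replicates 1 and 3 and at 0.367 FPKM in replicate 2. The zeros allow up to 0.612 and 0.779 FPKM at the length of the longest annotated transcript. It reached 210, 315 and 291 FPKM in SSCiPSC and 244, 211 and 224 FPKM in fiPSC. The 2 iPSC groups overlapped, and neither came near SSC. The log2 fold change was 7.92 (SE 0.23, adjusted p = 1.43e-05) in SSCiPSC and 7.68 (SE 0.17, adjusted p = 6.59e-06) in fiPSC. The neighbouring genes did not rise in SSCiPSC. Patj, a tight junction scaffold 7131 bp upstream, fell by 2.17 on the log2 scale (adjusted p = 0.00261), and Kank4, 16418 bp downstream, changed by -0.48 (adjusted p = 0.236). The 5 further loci assembled within L1td1 all had their 6 iPSC libraries above their 3 SSC libraries.

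Zscan10 (chromosome 17, 23600856 to 23611019) was also listed at 0 in 2 of the SSC libraries, with 0.661 FPKM in replicate 2. At the length of the longest annotated transcript the zeros allow up to 0.67 and 0.854 FPKM. SSCiPSC held 34.2, 57.2 and 32.7 FPKM and fiPSC 41.2, 38.9 and 46.4 FPKM. These levels were among the lower ones of the 10 genes in iPSC. Its log2 fold change was 5.11 (SE 0.33, adjusted p = 0.000126) and 5.18 (SE 0.26, adjusted p = 6.29e-05). A second locus over the last part of the gene (23609285 to 23611038) gave 36.7, 66.9 and 36.7 FPKM in SSCiPSC, close to the first. Another locus, of 314 bases and no strand (23608712 to 23609025), did not separate the groups, with 0, 1.38 and 4.64 FPKM in SSC and 1.6, 3.11 and 0 FPKM in SSCiPSC (log2 fold change -0.11, adjusted p = 0.919). Cldn9, a claudin gene 71565 bp away, rose as well, by 1.6 in SSCiPSC (adjusted p = 0.0144) and 3.04 in fiPSC (adjusted p = 0.000634).

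The value for Utf1 carries the most doubt. The gene (chromosome 7, 139943789 to 139945112, plus strand) had no locus of its own but lay at one end of an interval (139908806 to 139945636) that it shares with Kndc1. The locus with the highest mean in that interval was placed on the minus strand by its position in the table, and the 2 plus-strand loci were lower. On the minus-strand locus the level was 1.19, 1.14 and 1.14 FPKM in SSC, 30.5, 87.0 and 52.2 FPKM in SSCiPSC and 64.9, 54.1 and 67.7 FPKM in fiPSC. The higher plus-strand locus, which is the one named for Kndc1, held 0.732, 0.778 and 0 FPKM in SSC, 3.21, 5.61 and 2.80 FPKM in SSCiPSC and 7.98, 6.75 and 8.21 FPKM in fiPSC. On both strands every iPSC library was above every SSC library. The minus-strand locus gave a log2 fold change of 4.61 (SE 0.37, adjusted p = 0.00023) and 4.87 (SE 0.15, adjusted p = 1.68e-05), and the plus-strand locus 1.7 (adjusted p = 0.00746) and 2.57 (adjusted p = 0.00077). Strand in this table was that of the annotation for 97.7% of loci whose ends matched a gene, so the values cannot be assigned to Utf1 with certainty.

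Dppa2 and Dppa4 are neighbours on chromosome 16, 9671 bp apart, and had the smallest log2 fold changes of the 9 genes at the loci used. Dppa4 (48283733 to 48294237) had the highest level of the 10 in SSC, at 15.8, 8.67 and 3.37 FPKM. It was 106, 130 and 104 FPKM in SSCiPSC and 119, 91.0 and 132 FPKM in fiPSC, a ratio of group means of 12.3 in either case. The log2 fold change was 3.68 (SE 0.46, adjusted p = 0.001) and 3.67 (SE 0.48, adjusted p = 0.0012) and the SSC libraries spread from 3.37 to 15.8 FPKM. Dppa2 (48303908 to 48319723) held 0.880, 0 and 2.2 FPKM in SSC, 26.2, 47.1 and 24.9 FPKM in SSCiPSC and 25.5, 22.0 and 31.1 FPKM in fiPSC. Its log2 fold change was 4.15 (SE 0.48, adjusted p = 0.000707) and 3.89 (SE 0.43, adjusted p = 0.000655). These values depend on the locus taken for Dppa2, since the one used, over 75.1% of the gene, rests on about 3.55, 0 and 6.96 fragments in SSC and the 4 others within the gene were at 0 in every SSC library. The other plus-strand locus of Dppa2 (48316335 to 48319081) held 43.1, 85.6 and 51.5 FPKM in SSCiPSC and rose by 5.87 and 5.72, and a locus of 173 bases with no strand, the one with the highest mean, rose by 7.33 and 6.93, above the values of Utf1, Zscan10 and Fbxo15. The second locus of Dppa4 (48291712 to 48295050) held 1.79, 2.75 and 2.55 FPKM in SSC and rose by 3.33 and 3.37, so Dppa4 kept a small rise on both of its loci while the order of the SSC libraries differed between them. Morc1, a germ cell gene that lies 111514 bp beyond Dppa2, also rose, by 2.32 (SE 0.19, adjusted p = 0.000227) in SSCiPSC and 1.83 (SE 0.19, adjusted p = 0.000459) in fiPSC. On the other side of the pair, Nectin3, a cell adhesion gene 1785208 bp away, fell by 0.73 in SSCiPSC (adjusted p = 0.0218) and changed by -0.33 in fiPSC (adjusted p = 0.113).

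The F-box genes went from little or no signal to high levels at the loci used. Fbxo2 (chromosome 4, 148160621 to 148166424) was listed at 0 in all 3 SSC libraries. SSCiPSC held 211, 477 and 251 FPKM and fiPSC 238, 319 and 131 FPKM, with fiPSC replicate 3 the lowest and SSCiPSC replicate 2 the highest. At the length of the longest annotated transcript, a count of 3 fragments in the shallowest SSC library would have given 1.92 FPKM. At that length the mean was at least 163-fold higher in SSCiPSC and at least 119-fold higher in fiPSC. A shorter transcript at this locus would raise the limit and lower both folds. The fitted log2 fold changes, 8.2 (SE 0.31, adjusted p = 3.27e-05) and 7.76 (SE 0.32, adjusted p = 3.78e-05), depend on the value of 1 added before the logarithm. This locus covered 59.9% of the gene from its 5′ end. A second locus over the last 36.5% (148164190 to 148166309) held only 3.75, 5.37 and 3.16 FPKM in SSCiPSC and 1.40, 1.87 and 0 FPKM in SSC. It rose by only 1.4 (adjusted p = 0.0404) in SSCiPSC and 1.28 (adjusted p = 0.0474) in fiPSC, so the size of the rise depends on the locus. Fbxo44, a related F-box gene whose annotated span lies 139 bp away, rose by 1.26 (SE 0.26, adjusted p = 0.00767) in SSCiPSC and 0.99 (SE 0.22, adjusted p = 0.0096) in fiPSC, from 1.98, 1.67 and 1.86 FPKM in SSC to at most 7.64 FPKM. That call in fiPSC was lost without fiPSC replicate 1 (adjusted p = 0.0518).

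Fbxo15 (chromosome 18, 84934782 to 84981473) was present in every SSC library, at 2.71, 3.27 and 2.48 FPKM. It was 195, 158 and 158 FPKM in SSCiPSC and 116, 116 and 128 FPKM in fiPSC, 60.4 and 42.6 times the SSC mean. Its SSC libraries varied little, and its log2 fold changes of 5.48 (SE 0.16, adjusted p = 1.5e-05) and 4.99 (SE 0.13, adjusted p = 1.19e-05) had small errors. A locus on the opposite strand of the same interval held 1.84, 3.23 and 3.11 FPKM in SSC and 10.3, 9.53 and 10.1 FPKM in SSCiPSC. Cyb5a, the cytochrome b5 gene 54911 bp away, rose by 1.55 (adjusted p = 0.000804) and 1.71 (adjusted p = 0.000772).

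Among 17 other F-box genes and SCF subunits, 13 had a locus, and 8 rose, 1 fell and 4 did not pass in SSCiPSC. In fiPSC 8 rose, 2 fell and 3 did not pass. With each named gene counted at 1 locus, which is how the listed genes enter, 69.1% of 10407 genes were called in SSCiPSC (39.8% higher and 29.4% lower, median log2 fold change 0.22) and 71.2% of 10507 in fiPSC (40.4% higher and 30.8% lower, median 0.19), so the share of this list that was called was near that of all named genes. The median log2 fold change was 0.86 and 0.84, well below those of Fbxo15 and Fbxo2 at the loci used. Fbxo5, an inhibitor of the anaphase-promoting complex, rose most of the 13, from 7.25, 7.59 and 8.60 FPKM in SSC to between 82.1 and 99.8 FPKM in iPSC, by 3.45 (SE 0.13, adjusted p = 3.53e-05) and 3.27 (SE 0.11, adjusted p = 2.3e-05) on the log2 scale. Ccnf, a cyclin with an F-box, rose by 2.38 (adjusted p = 0.000209) and 2.02 (adjusted p = 0.000267), and Skp2, which binds the cell cycle inhibitor p27, by 1.62 (adjusted p = 0.000458) and 1.4 (adjusted p = 0.000464). Skp1a, the adaptor common to all SCF ligases, gave 0.83 and 0.84 with the values as deposited (adjusted p = 0.00265 and 0.00173) but -0.24 and -0.13 after quantile normalization (adjusted p = 0.138 and 0.278). The subunit Fbxw11, which recognizes phosphorylated targets such as beta-catenin, was the one gene that fell in SSCiPSC, by 0.75 on the log2 scale (adjusted p = 0.00279).

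Tdh (chromosome 14, 63492347 to 63509092) was near the limit of detection in SSC, at 0.721, 0.964 and 0.460 FPKM. SSCiPSC held 141, 285 and 164 FPKM and fiPSC 134, 93.1 and 155 FPKM. The log2 fold change was 6.79 (SE 0.29, adjusted p = 4.51e-05) and 6.2 (SE 0.23, adjusted p = 2.78e-05). Tdh oxidizes threonine to a product that Gcat, the next enzyme, splits into glycine and acetyl-CoA. Gcat, named for this role, was at 12.1, 15.1 and 11.0 FPKM in SSC, 14.4, 17.7 and 12.8 FPKM in SSCiPSC and 18.6, 14.8 and 17.9 FPKM in fiPSC. Its log2 fold change was 0.22 (95% interval -0.26 to 0.69, adjusted p = 0.401) in SSCiPSC and 0.4 (95% interval 0 to 0.81, adjusted p = 0.0886) in fiPSC, far below those of Tdh.

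The list of enzymes that break down threonine and pass the carbon of glycine to folate held 13 genes, of which 10 had a locus and were tested. In SSCiPSC 7 rose, 1 fell and 2 did not pass, with a median log2 fold change of 1.36, and the counts were the same in fiPSC, with a median of 1.38. Of all named genes 69.1% and 71.2% were called. After quantile normalization 5 and 6 of the 10 rose, with medians of 0.63 and 0.75. Amt, a subunit of the glycine cleavage system, was 0.537, 2.47 and 1.37 FPKM in SSC, 88.5, 88.1 and 76.7 FPKM in SSCiPSC and 86.1, 86.8 and 84.6 FPKM in fiPSC, a log2 rise of 5.19 (SE 0.31, adjusted p = 1e-04) and 5.22 (SE 0.3, adjusted p = 9.1e-05). Gcsh, the carrier protein of that system, rose by 1.47 (adjusted p = 0.000893) and 1.55 (adjusted p = 0.000305) from an already high 57.1, 62.1 and 47.1 FPKM. Mthfd1, a folate enzyme of the cytosol, rose by 3.7 (adjusted p = 7.86e-05) and 3.54 (adjusted p = 5.75e-05). Shmt2, the mitochondrial enzyme that interconverts serine and glycine, rose by 1.25 (adjusted p = 0.00327) and 1.2 (adjusted p = 0.00251), and the first of these calls was lost after quantile normalization (0.54, adjusted p = 0.0844). Sdsl, a gene related to serine dehydratase, moved the other way, from 2.64, 2.02 and 2.70 FPKM in SSC to at most 0.211 FPKM in iPSC, with log2 fold changes of -1.73 (adjusted p = 0.000531) and -1.66 (adjusted p = 0.000534).

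**Figure D2:**
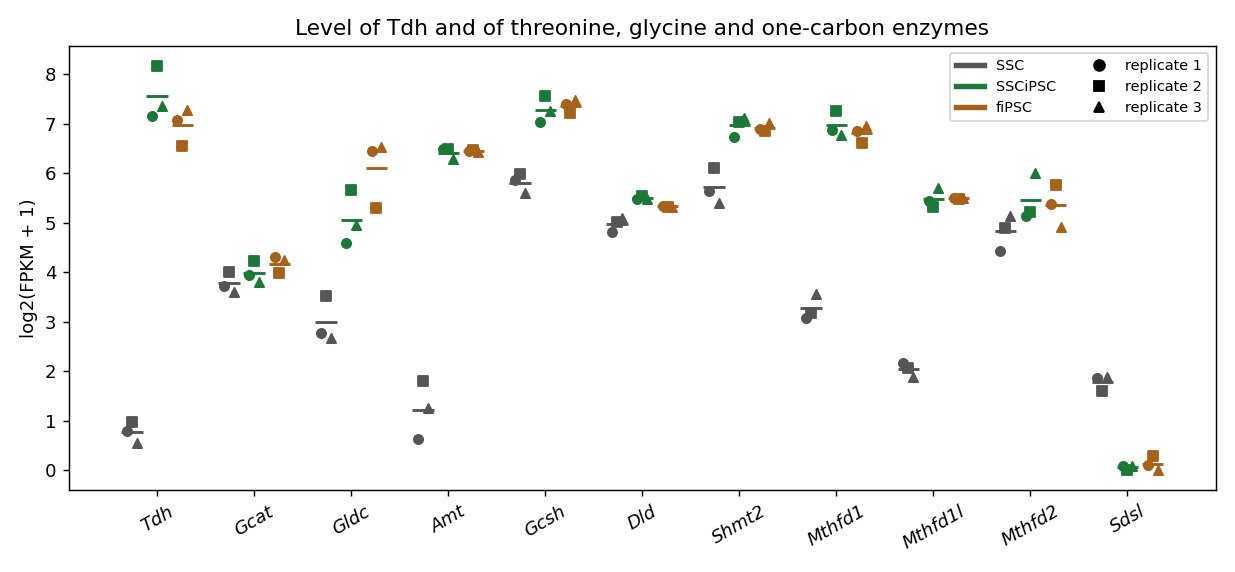
Level of Tdh, of Gcat and of enzymes of glycine cleavage and folate metabolism, as log2(FPKM + 1), in the 9 libraries. Points are libraries and bars are group means; Tdh and Amt separate iPSC from SSC by the widest gaps, Gcat (11.0 to 18.6 FPKM over all libraries) does not separate them, and Sdsl is lower in iPSC.

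Fut4 (chromosome 9, 14748320 to 14752393) ran against the other 9 genes. It was 0.577, 0.735 and 1.29 FPKM in SSC, 0.0430, 0.0495 and 0.0450 FPKM in SSCiPSC and 0.0767, 0.0772 and 0.0220 FPKM in fiPSC. All SSC libraries were above all iPSC libraries, and 28.7% of tested loci were lower without overlap in SSCiPSC. The values stand for about 4.0, 13.2 and 7.0 fragments in SSC and 1.3 to 5.3 fragments per library in iPSC. The gene was too low to pass the filter of 1 FPKM in 3 libraries and had no test. With no filter the log2 fold change was -0.82 (SE 0.19, adjusted p = 0.0162) in SSCiPSC, -0.8 (SE 0.18, adjusted p = 0.0143) in fiPSC and 0.02 (SE 0.06, adjusted p = 0.94) between the 2 kinds of iPSC. A short locus at the 3′ end of the gene (14748327 to 14748864) held 1.49, 0.569 and 1.91 FPKM in SSC and was at 0 in 5 of the 6 iPSC libraries, with 0.170 FPKM in SSCiPSC replicate 3. Of the genes beside Fut4, Piwil4, of the germ line piRNA pathway, gave -1.41 (adjusted p = 0.0479) in SSCiPSC and -1.31 (adjusted p = 0.0597) in fiPSC, and the DNA repair gene Mre11a rose by 0.98 (adjusted p = 0.00314) and 0.88 (adjusted p = 0.00298).

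Fut9 is the fucosyltransferase known to make SSEA-1 in mouse ES cells and embryos, and the iPSC had been sorted for that sugar. It was listed at 0, 0.162 and 0 FPKM in SSC, 13.6, 8.5 and 18 FPKM in SSCiPSC and 14.0, 14.7 and 11.1 FPKM in fiPSC. Its log2 fold change was 3.72 (SE 0.32, adjusted p = 0.000285) and 3.75 (SE 0.22, adjusted p = 0.000102). The 2 enzymes thus had opposite patterns, with Fut9 at least 8.5 FPKM and Fut4 at most 0.0772 FPKM in any iPSC library. Of 17 genes of fucose transfer and supply, 12 had a locus, and 2 rose, 7 fell and 3 did not pass in SSCiPSC (median log2 fold change -0.84), against 2, 6 and 4 in fiPSC (median -0.68). Of all named genes 69.1% and 71.2% were called in either direction, and 29.4% and 30.8% were lower. Apart from Fut9 the gene that rose was Tsta3, which completes GDP-fucose synthesis, by 1.46 (adjusted p = 0.00232) and 1.36 (adjusted p = 0.00295). Gmds, the enzyme before it, was lower, with log2 fold changes of -0.83 (adjusted p = 0.0126) and -1.12 (adjusted p = 0.00354). Among the other genes that fell were B4galt1, a galactosyltransferase that builds the chain to which fucose is added (-1.83, adjusted p = 0.000278, and -1.56, adjusted p = 0.000308), Pofut2, which fucosylates thrombospondin repeats (-1.13, adjusted p = 0.00338, and -1.22, adjusted p = 0.000961), and Fut8, which fucosylates the core of N-glycans (-1.67, adjusted p = 0.00114, and -1.78, adjusted p = 0.000206).

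**Figure D3:**
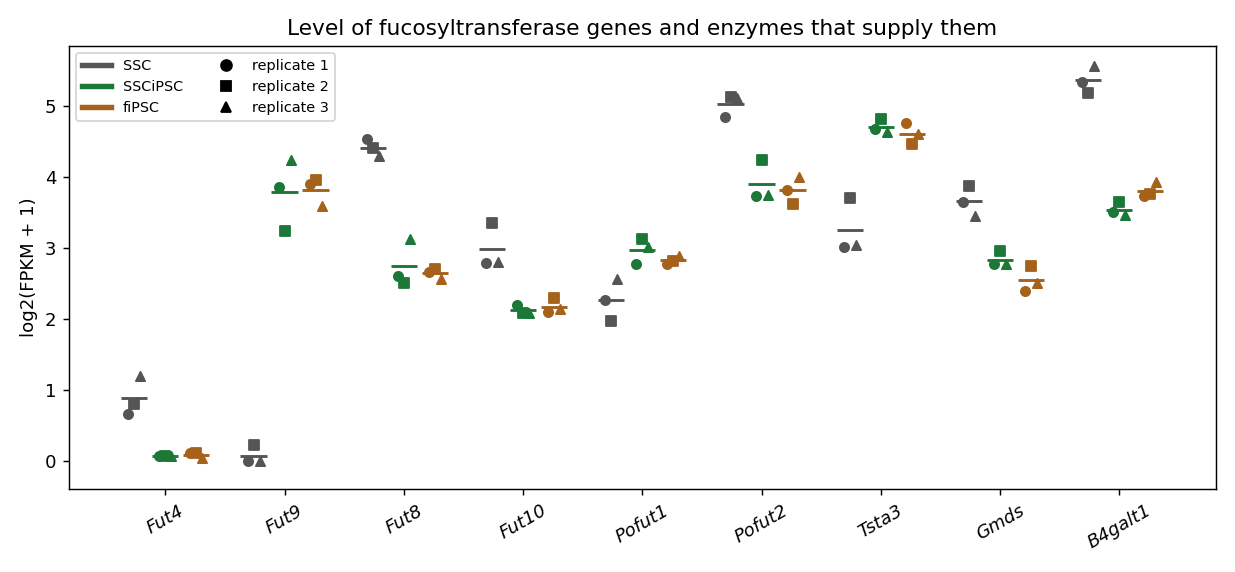
Level of Fut4, Fut9 and genes of fucose transfer and supply, as log2(FPKM + 1), in the 9 libraries. Points are libraries and bars are group means; Fut9 is near 0 in SSC and at 8.5 to 18 FPKM in iPSC, while Fut4 is above 0.5 FPKM in SSC only and Fut8, Pofut2 and B4galt1 are lower in iPSC.

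By mean level at the loci used, the 10 genes stood in the same order in both kinds of iPSC. The order depends on the locus taken. The second locus of Fbxo2 held 3.75, 5.37 and 3.16 FPKM in SSCiPSC and 3.16, 4.20 and 3.53 FPKM in fiPSC. It would put Fbxo2 below Dppa2 in both. The second locus of Dppa4 held 28.6, 39.5 and 30.1 FPKM in SSCiPSC and 34.2, 30.6 and 35.9 FPKM in fiPSC, below Zscan10 in both. The other plus-strand locus of Dppa2 held 55.5, 42.9 and 57.4 FPKM in fiPSC and would stand above Utf1 in SSCiPSC and below it in fiPSC. The locus with the highest mean held 140, 250 and 116 FPKM in SSCiPSC and 126, 77.8 and 181 FPKM in fiPSC, which would put Dppa2 above Dppa4 in both. The means in SSCiPSC, in FPKM, were Dppa5a (761), Fbxo2 (313), L1td1 (272), Tdh (196), Fbxo15 (170), Dppa4 (114), Utf1 (56.6), Zscan10 (41.4), Dppa2 (32.7) and Fut4 (0.0458). The libraries of Fbxo2, L1td1, Tdh and Fbxo15 overlapped from each gene to the next, as did those of Utf1, Zscan10 and Dppa2, so these steps did not exceed the spread. Those in fiPSC ran from Dppa5a (706) through Fbxo2 (230), L1td1 (226), Tdh (127), Fbxo15 (120), Dppa4 (114), Utf1 (62.2), Zscan10 (42.2) and Dppa2 (26.2) to Fut4 (0.0586). In SSC it was another one, led by Dppa4 (9.27), Fbxo15 (2.82) and Dppa5a (2.12), with Fbxo2 last. The SSC libraries of Fbxo15 and Dppa5a overlapped, as did those of each gene from Utf1 down to the next, and most of these values rest on a few fragments, so below Dppa4 the order in SSC is loose.

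**Figure D4:**
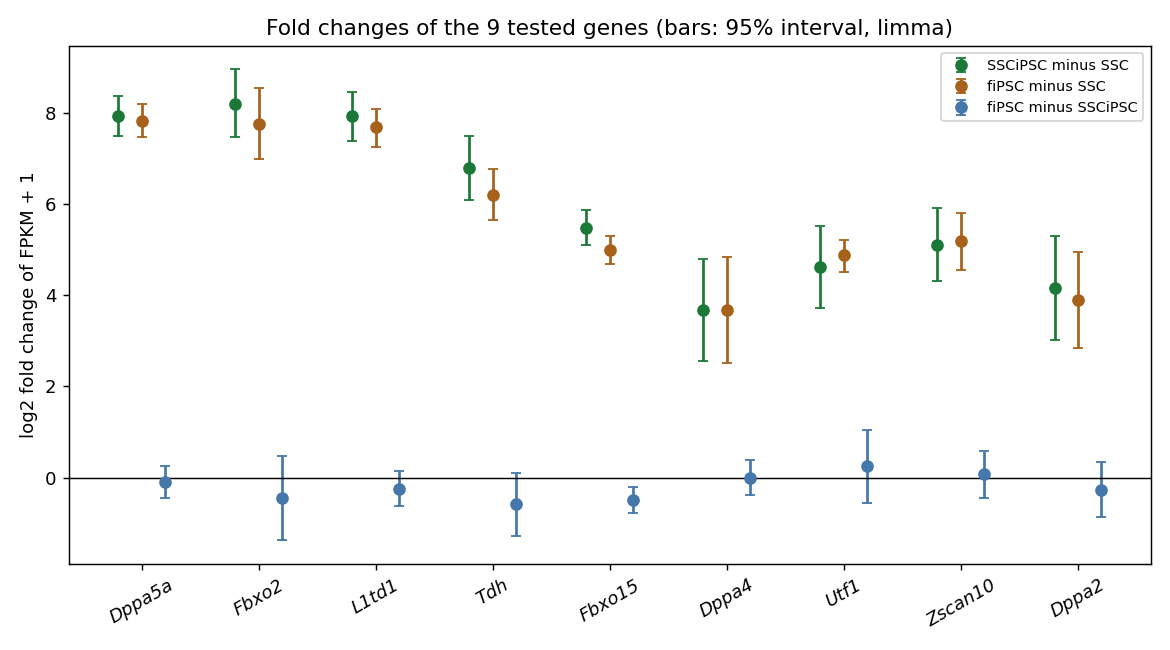
Log2 fold changes of the 9 tested genes for SSCiPSC minus SSC, fiPSC minus SSC and fiPSC minus SSCiPSC, with 95% intervals from limma. Both comparisons with SSC lie between 3.67 and 8.2, and the intervals of fiPSC minus SSCiPSC include 0 for each gene but Fbxo15 (-0.5, adjusted p = 0.243).

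Between the 2 kinds of iPSC, Fbxo15 was the one gene of the 10 whose libraries did not overlap at the locus used. It was lower in fiPSC by 0.5 on the log2 scale (95% interval -0.78 to -0.21, unadjusted p = 0.00442, adjusted p = 0.243 in limma). Of all tested loci, 9.23% were lower and 9.41% higher in fiPSC without overlap (18.6% together). The estimate for Fbxo15 is that of its plus-strand locus. Of the 13 other loci in the same interval, 11 had estimates above 0. Some of these, all without a strand, did not overlap in the other direction. Of them the largest log2 difference was 0.83 (8.51, 9.0 and 5.19 FPKM in SSCiPSC and 11.9, 16.1 and 13.9 FPKM in fiPSC, unadjusted p = 0.0068, adjusted p = 0.27 in limma). The others were 0.24 (13.5, 12.5 and 11.4 FPKM against 14.8, 14.2 and 15.5 FPKM) and 0.29 (4.62, 5.27 and 4.12 FPKM against 6.23, 5.58 and 5.91 FPKM). The estimates below 0 were -0.24 and -0.45, the last also without overlap (2.54, 3.23 and 4.14 FPKM against 2.48, 2.40 and 1.54 FPKM). The direction for Fbxo15 thus differed between loci. The estimate for Tdh was -0.59 (-1.28 to 0.11, adjusted p = 0.49) at the locus used. Its other loci gave -0.67 and -0.71 without overlap (unadjusted p = 0.0114 and 0.00312, adjusted p = 0.3 and 0.223 in limma). The estimate for Fbxo2 was -0.44 (-1.37 to 0.48). For Dppa2 it was -0.27 (-0.87 to 0.34), for L1td1 -0.25 (-0.63 to 0.14) and for Dppa5a -0.1 (-0.45 to 0.25). At the other loci in the interval of Dppa5a the estimates ran from -0.8 to 0.17, and the lowest (-0.8, -0.6 and -0.42) came without overlap. Dppa4 gave 0 (-0.39 to 0.39), Zscan10 0.07 (-0.44 to 0.58) and Utf1, at its minus-strand locus, 0.25 (-0.55 to 1.05). The plus-strand locus named for Kndc1, on the strand of Utf1, gave 0.87 without overlap (unadjusted p = 0.0079, adjusted p = 0.281 in limma). It held 3.21, 5.61 and 2.80 FPKM in SSCiPSC and 7.98, 6.75 and 8.21 FPKM in fiPSC. The lower plus-strand locus gave 0.56 with overlap. The estimate for Utf1 thus depends on the locus. At the loci used the intervals were widest for Fbxo2, Utf1 and Tdh, for which these data bound a difference only loosely. The median of the 9 was -0.25, beside 0.01 over all loci.

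Within the iPSC groups most of the genes were high or low in the same library. SSCiPSC replicate 2 had the highest level for 7 of the 9 tested genes, the exceptions being Fbxo15 and Dppa5a, which were highest in replicate 1. The median of the 9 genes in that library was 0.76 above the other 2 on the log2 scale, whereas that of all loci of at least 1 FPKM was -0.02 and 34.7% of those loci were highest there. Utf1 stood out most, 1.1 above the mean of the others, then Fbxo2 (1.05), Tdh (0.91), Dppa2 (0.85) and Zscan10 (0.76). In fiPSC the differences were smaller, with replicate 2 lowest for 7 of the 9 (median -0.22) and replicate 3 highest for 7 of the 9 (median 0.19). Of all loci of at least 1 FPKM, 37.3% were lowest in fiPSC replicate 2 (median -0.01) and 36.8% highest in replicate 3 (median 0.01). Fbxo2 broke the pattern of the 9 genes, being highest in fiPSC replicate 2 (319 FPKM) and lowest in replicate 3 (131 FPKM). Of the 8 core pluripotency genes with a locus, 5 were also highest in SSCiPSC replicate 2, namely Pou5f1 (658, 877 and 665 FPKM), Esrrb, Tfcp2l1, Nr0b1 and Sall4 (59.1, 151 and 76.7 FPKM), whereas Klf4 and Klf2 were highest in replicate 3 and Nanog in replicate 1 (483, 456 and 426 FPKM). As the libraries of a group have no order and each is a single library, whether a line, a culture or a preparation differed cannot be told apart.

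**Figure D5:**
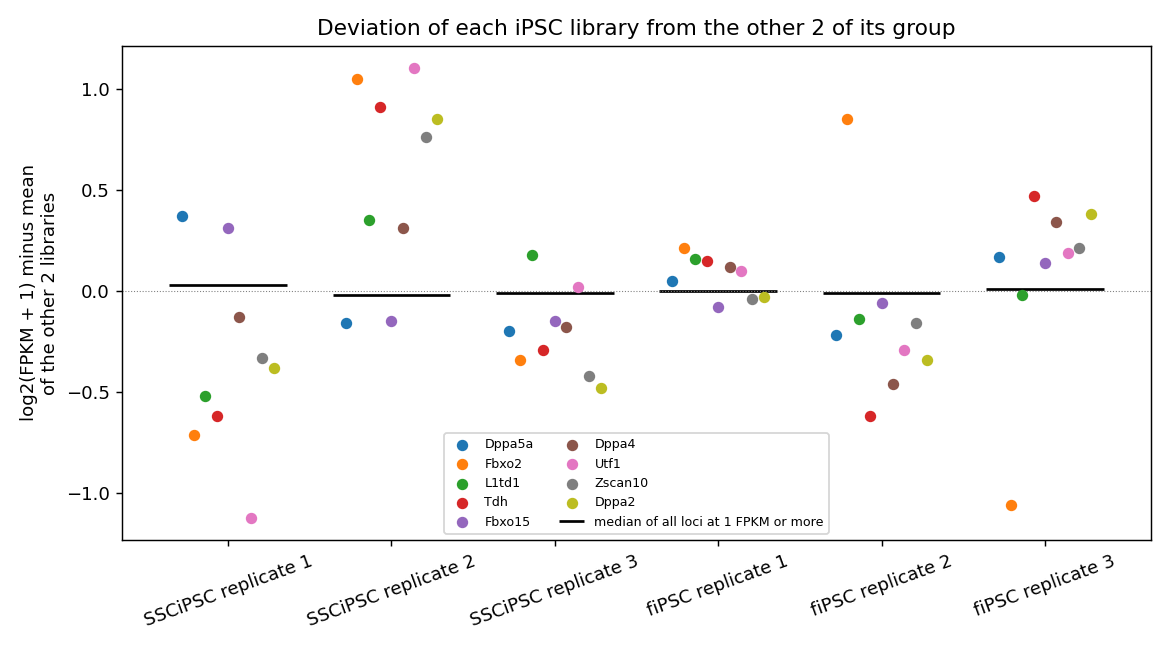
Log2(FPKM + 1) of the 9 tested genes in each iPSC library minus the mean of the other 2 libraries of its group. Points are genes and black bars are the median of all loci with at least 1 FPKM, which lies near 0 in every library; 7 of the 9 genes lie above 0 in SSCiPSC replicate 2.

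The named gene with the closest pattern was sought by the Euclidean distance of log2(FPKM + 1) over the 9 libraries, among 10759 genes. L1td1 was closest to the nuclear receptor Esrrb (distance 1.19), which held 0.486, 0.689 and 0.716 FPKM in SSC and 170 to 298 FPKM in iPSC. Fbxo2 was closest to L1td1 (1.24), Fbxo15 to Rrm2, a ribonucleotide reductase subunit (1.01), and Zscan10 to the ligand gene Nodal (0.92). Tdh was closest to Stmn2 (1.45), Dppa4 to the mannosidase gene Manba (1.36) and Utf1 to Dmtn (1.5). Dppa5a had no near match, its closest gene being Pou5f1 at a distance of 3.79. Fut4 was closest to Gpr50 (0.2), with both genes near 0 in iPSC.

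Other transcripts associated with ES cells were described as a list of 20, of which 12 had a locus. In SSCiPSC 9 rose, 1 fell and 2 did not pass, with a median log2 fold change of 2.48, and in fiPSC 10 rose and 2 fell, with a median of 3.26, where 39.8% and 40.4% of all named genes rose. The 9 include Dppa3, a maternal-effect and germ cell gene, which rose by 2.08 in SSCiPSC (adjusted p = 0.0171) but did not pass with a pseudocount of 0.1 (log2 fold change 3.4, adjusted p = 0.0692) or without SSCiPSC replicate 2 (1.77, adjusted p = 0.0676). Tdgf1, the Nodal co-receptor Cripto, was 0, 0.209 and 0 FPKM in SSC, 392, 214 and 261 FPKM in SSCiPSC and 341, 348 and 359 FPKM in fiPSC (log2 fold change 8.04, SE 0.25, adjusted p = 2.06e-05, and 8.36, SE 0.13, adjusted p = 1.81e-06). Alpl, the alkaline phosphatase used to stain iPSC colonies, rose by 2.88 (adjusted p = 0.000142) and 2.86 (adjusted p = 7.45e-05). Dnmt3l, a cofactor of de novo DNA methylation, rose by 6.15 (adjusted p = 6.35e-05) and 6.17 (adjusted p = 9.63e-05). Lin28a, which blocks let-7 maturation, was already at 44.3, 45.4 and 32.2 FPKM in SSC, and its rise by 1.14 (adjusted p = 0.028) in SSCiPSC was lost without SSC replicate 1 or 3 (adjusted p = 0.0515 and 0.0723), without SSCiPSC replicate 3 (0.0528) and after quantile normalization (0.182). In fiPSC it rose by 0.96 (adjusted p = 0.0134), a call lost without fiPSC replicate 1 or 3 (0.0572 and 0.0513) and after quantile normalization (0.111). The gene that fell in SSCiPSC was Tex19.2, a germ cell gene, by 1.97 (adjusted p = 0.000984), and it fell by 2.01 (adjusted p = 0.0014) in fiPSC. Its paralog Tex19.1 was 74.0, 66.9 and 49.2 FPKM in SSC and gave -0.56 (adjusted p = 0.0529) in SSCiPSC and a fall by 1 (adjusted p = 0.00586) in fiPSC. None of the 11 genes of the totipotent-like state that were listed, such as Zscan4c, could be matched to a locus, so they were not analysed here.

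The labels of the groups were checked against defining markers. All 8 core pluripotency genes with a locus were higher in either iPSC group than in SSC, with a median log2 fold change of 4.28 and 3.23, where 39.8% and 40.4% of all named genes were higher. Nanog was listed at 0 in all SSC libraries. The calls for Klf4 and Sall4 were lost after quantile normalization. That for Sall4 was also lost in SSCiPSC without SSC replicate 2 or 3 (adjusted p = 0.0608 and 0.0792) or SSCiPSC replicate 2 or 3 (0.063 and 0.0715), and in fiPSC without fiPSC replicate 1 or 3 (0.0505 and 0.0524). Of 12 germ line genes with a locus, 9 fell and 2 rose in either comparison, where 29.4% and 30.8% of all named genes were lower. Gfra1, the sorted antigen, was 37.7, 34.1 and 23.9 FPKM in SSC and at most 0.171 FPKM in iPSC. The genes that rose, Etv5 and Kit, are transcribed in cells other than germ cells as well.

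The SSC libraries also held RNA of other testis cells. The 9 Sertoli cell genes with a locus, of 11 listed, summed to 1275, 1274 and 1067 FPKM in SSC, led by Clu, and to between 13.3 and 18.5 FPKM in iPSC. Leydig cell genes, 3 of 8 with a locus and led by Cyp11a1, summed to 160, 124 and 237 FPKM in SSC and to at most 0.358 FPKM in iPSC. Macrophage and mast cell genes, 9 of 10 with a locus, summed to 118, 285 and 950 FPKM in SSC, with the mast cell tryptase Tpsab1 the most abundant (50.3, 163 and 487 FPKM), and to between 8.81 and 14.4 FPKM in iPSC, where Tpsab1 was at 0 in each library. The 11 fibroblast or feeder genes summed to 450, 412 and 843 FPKM in SSC and to between 278 and 460 FPKM in iPSC, led by Vim. In SSC replicate 3, the library with the most mast cell RNA and the fewest fragments, Fut4 and Dppa2 were highest of the 3 libraries, and Dppa4, Fbxo15, Dppa5a and Tdh were lowest. The part of these cells in the levels of the 10 genes was not tested.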

How the data were processed

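Expression was compared in 9 libraries, 3 each of SSC, SSCiPSC and fiPSC. The authors deposited FPKM values (the file header calls them RPKM), 1 per assembled locus and library. Per the labels, tools named in the submitters' processing notes were Trimmomatic 0.32, TopHat2 2.0.9, Bowtie2 2.1.0, Cufflinks 2.2.1 and Cuffdiff, on libraries depleted of ribosomal RNA and made with a stranded kit. Those notes name mm9, but the coordinates in the table match GRCm38, which was used here (GENCODE M21). The start and end of a locus are those of an assembled interval that several loci can share (23605 loci do), and strand was read from the order of loci within a chromosome. A locus was named for a gene when at least 50% of each overlapped, and the one with the highest mean was kept; Utf1 and Dppa5a took the highest locus of a shared interval. Of 54914 loci, 1 that lacked a value was dropped. A deposited summary file of feature numbers was not used.

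Loci with at least 1 FPKM in 3 of 6 libraries were tested on log2(FPKM + 1) with limma 3.58.1 (lmFit, eBayes with a trend) in R 4.3.3, with Benjamini-Hochberg adjustment over all loci tested and a threshold of 0.05; a fold change on this scale understates the change of low genes. Depth was estimated from the steps of the lowest FPKM values, which were whole multiples of 1 fragment within 0.05. No replicate pair held more than 1 locus with an equal value above 0, and none was merged. Scripts were tested on simulated data. The genes and lists were chosen with earlier results of these data known. The genes named are the 10 markers, their chromosome neighbours and nearest patterns, and from each list at most 4 genes per direction with the highest mean among those past the threshold, any that stand alone in direction, and a few named for their role or after their values were seen (Gcat, Gmds, Fbxo44, Tex19.1, Dppa3 and the core genes). The gene with the pattern nearest to Dppa2 and 1 gene that lost its call are not reported here. The alternatives tried were another pseudocount, other filters, quantile and median-ratio scaling, no variance trend, all 9 libraries in the fit, a replicate block, 1 locus per gene, a stricter threshold and leaving out each library; the locus with the highest mean of all that overlap a gene was added after the data were seen.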

Additional observations from a re-analysis of the deposited data

How the results depend on the processing

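All 9 tested genes kept their rise over SSC under all 17 alternatives in both comparisons, and without a filter Fut4 was called as well, lower in iPSC. The sizes moved more: with a pseudocount of 0.1 the median of the 9 genes went from 5.48 to 7.67 in SSCiPSC and from 5.18 to 7.3 in fiPSC, and the log2 fold change became 10.65 and 10.4 for L1td1, 11.52 and 11.07 for Fbxo2, 7.67 and 7.74 for Zscan10 and 5.69 and 5.42 for Dppa2, which reached 7.33 and 6.93 at its highest-mean locus, an alternative added after the data were seen. None of the 9 passed between fiPSC and SSCiPSC under any of them. The 8 estimates that turned sign lay in that last comparison and none was called: Dppa4 gave 0.11 after quantile normalization, 0.1 without SSCiPSC replicate 2 and 0.15 without fiPSC replicate 2, Zscan10 -0.04 and -0.07 without SSCiPSC replicate 1 or 3, Utf1 -0.12 and Dppa5a 0.02 without SSCiPSC replicate 1, and Dppa2 0.02 without SSCiPSC replicate 2. With 1 library left out, the estimates for these genes ran from -0.11 to 0.15 for Dppa4, from -0.07 to 0.32 for Zscan10, from -0.12 to 0.62 for Utf1, from -0.17 to 0.02 for Dppa5a and from -0.43 to 0.02 for Dppa2. The number of all loci past the threshold, 18396 for SSCiPSC against SSC and 19680 for fiPSC against SSC, was 9707 and 10158 with a mean of at least 5 FPKM and 7192 and 7476 with 1 locus per gene, since fewer loci were tested. Left out 1 library at a time, it ranged from 14477 to 18577 and from 15301 to 20731. For fiPSC against SSCiPSC it was 23, and 11 with a mean of at least 5 FPKM, 11 with all 9 libraries, 6 with the replicate block, 49 with 1 locus per gene and 9 at 0.01, and it ranged from 6 (without fiPSC replicate 1) to 20 with 1 library left out, with 7 without fiPSC replicate 3, 11 without fiPSC replicate 2 and 12 without SSCiPSC replicate 2; the cause was not tested. Of the called loci 52.1% were higher in SSCiPSC than in SSC, and 66.3% with a mean of at least 5 FPKM (54.2% and 64.2% for fiPSC). For fiPSC against SSCiPSC 34.8% were higher in fiPSC, but 59.2% with 1 locus per gene. Median-ratio scaling moved the median log2 fold change of all loci from 0.11 to 0.26 and from 0.17 to 0.29, small beside the changes of the 9 genes. Libraries with the same number did not deviate together (correlations of -0.244 to 0.027), so the numbers were not taken as pairs; with the replicate block all 9 genes kept their calls against SSC (16926 and 17546 loci in all), and the listed genes that lost theirs in 1 or both comparisons included Fut10, Fpgt, Trim71 and Dld. The number of fucosylation genes that fell in SSCiPSC went from 7 to 3 at 0.01. The shallow SSC libraries limit what a level of 0 there can show.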
